A study of Mus musculus with 4 samples.

Results

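The genes described here are the 33 subunits of the INO80, SRCAP and TIP60 complexes, the chromatin remodelling complexes that hold RUVBL1 and RUVBL2. They were taken by gene symbol from subunit lists by a rule that used no measured value, though with earlier results of these data known. They are 33 of the 22911 genes named on the array. All 33 were among the 12471 genes that the scanner software called well above background on all 4 arrays. The study placed the macrophage-like mouse line RAW264.7, from ATCC, under an siRNA pool against Ruvbl2 or a control siRNA and treated them with LPS or DMSO. LPS is lipopolysaccharide, a bacterial cell wall component that activates Toll-like receptor signalling, and the series asks how RUVBL2 bears on proinflammatory genes after LPS.

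The groups were Ruvbl2 siRNA with LPS, Ruvbl2 siRNA with DMSO, control siRNA with LPS and control siRNA with DMSO, each with 1 Agilent array in 1 colour. RNA was taken 2 days after transfection from cells that otherwise share one line and one medium. The sample titles spell the target as siRvbl2, which was read as Ruvbl2 from the series' design text. The protocol allows either electroporation or a transfection reagent, so the method for these cells is unknown here, as are the LPS dose and exposure time. No group has a second array, so no value has a replicate error and no p-value is given.

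RUVBL1 and RUVBL2 are AAA+ ATPases that join in a ring, on which INO80, SRCAP and TIP60 are assembled. INO80 slides nucleosomes and has been linked to the turnover of the histone variant H2A.Z, SRCAP exchanges H2A.Z into nucleosomes at promoters, and TIP60 acetylates histones as well as exchanging them. Each complex adds its own motor ATPase, scaffold proteins and readers of histone marks to the shared ring, and TIP60 and RUVBL proteins have been found at genes under NF-kappaB control, the factor that LPS activates in macrophages.

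Levels below are log2 processed signals minus the 75th percentile of the array, so a level of 0 is the brightness that 75% of probes do not exceed. A difference is between levels of 1 gene on 2 arrays, on the log2 scale, and the value after ± is its technical SD from repeated spots within an array. That SD was 0.07 for levels above 3, 0.11 for levels from 0 to 3, 0.15 from -2 to 0 and 0.27 from -4 to -2. The scanner's own error model gave a larger SD of a difference, with a median of 0.20 over the members. Neither covers variation between cultures. In bulk RNA, fewer cells that express a gene and less RNA per cell cannot be told apart.

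The 4 arrays lay on 1 slide and were scanned on 1 day, with Ruvbl2 siRNA in row 2 of the slide and control siRNA in row 1. The row and the siRNA cannot be told apart. Between 54.1% and 55.0% of RNA spots were well above background, and the 75th percentile of the signal from 331 to 456. Of 9 macrophage markers, 8 were well above background on each array and Mertk was not. Among markers of other cells, Siglech, Cd3e and Pecam1 were well above background on each array, while Ncr1, Epcam, Col1a1 and Krt8 were not. The spike-in RNAs, added in fixed amounts before labelling, did not follow the 75th percentile. When arrays were scaled on them, the all-gene median of the siRNA difference was -0.02 in LPS, against 0.01 with the 75th percentile, and -0.22 in DMSO, against 0.04. That of the LPS difference was 0.29 with Ruvbl2 siRNA, against -0.03, and 0.09 with control siRNA, against 0.00. Counts relative to the median of all genes, which no such scaling changes, are therefore given as well for the siRNA and LPS differences.

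Ruvbl2 mRNA was below the control in LPS and in DMSO, by less than 1.5-fold each time. Its processed signal was 9311 with Ruvbl2 siRNA and LPS and 8418 with Ruvbl2 siRNA and DMSO, against 11941 with control siRNA and LPS and 14667 with control siRNA and DMSO. As levels these were 4.51 and 4.67 with Ruvbl2 siRNA, against 4.92 and 5.01 with control siRNA. Both Ruvbl2 siRNA arrays lay below both control arrays. The difference was -0.40 ± 0.07 in LPS and -0.34 ± 0.07 in DMSO, so that 75.7% and 79.2% of the control level was left. Among all 12471 genes, 8.77% had an siRNA difference as low or lower in LPS and 6.30% in DMSO. Against the scanner's error model neither value passed 2 SDs. With spike-in scaling the difference was -0.43 in LPS and -0.60 in DMSO. A second, dimmer Ruvbl2 probe on the same transcript gave -0.12 in LPS and -0.55 in DMSO. The mRNA that the siRNA targets was thus lower in direction by both probes, while protein was not analysed here.

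Ruvbl1, the partner ATPase of the ring, had levels of 5.58 and 5.56 with Ruvbl2 siRNA in LPS and DMSO, against 5.43 and 5.56 with control siRNA. Its siRNA difference was 0.14 ± 0.07 in LPS and 0.00 ± 0.07 in DMSO, the DMSO value being -0.26 with spike-in scaling. Actl6a, an actin-related protein in all 3 complexes and in the BAF remodellers, had levels of 2.78 and 2.78 with Ruvbl2 siRNA in LPS and DMSO, against 2.73 and 2.96 with control siRNA. The control DMSO array was the highest of the 4, and the siRNA difference was 0.06 ± 0.11 in LPS and -0.18 ± 0.11 in DMSO.

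Promoter sequences of 4 members are shown as description, and a relation of any measured value to a motif was not tested. Ruvbl2 is the siRNA target and Ruvbl1 its partner, while Ep400 and Yy1 had both LPS arrays on one side of both DMSO arrays, in opposite directions. Each run is the 250 bases before the RefSeq gene start on GRCm38.p6, 5′ to 3′ on the gene's strand, and capitals mark motifs found on either strand. The regions are chr7:45434465-45434714 on the minus strand for Ruvbl2, chr6:88465159-88465408 on the plus strand for Ruvbl1, chr5:110770718-110770967 on the minus strand for Ep400 and chr12:108793047-108793296 on the plus strand for Yy1.
Ruvbl2: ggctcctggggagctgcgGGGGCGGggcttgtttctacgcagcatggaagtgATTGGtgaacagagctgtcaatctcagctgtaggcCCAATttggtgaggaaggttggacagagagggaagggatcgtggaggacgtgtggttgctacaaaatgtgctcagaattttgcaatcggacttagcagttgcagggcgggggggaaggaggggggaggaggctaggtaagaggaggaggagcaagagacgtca
Ruvbl1: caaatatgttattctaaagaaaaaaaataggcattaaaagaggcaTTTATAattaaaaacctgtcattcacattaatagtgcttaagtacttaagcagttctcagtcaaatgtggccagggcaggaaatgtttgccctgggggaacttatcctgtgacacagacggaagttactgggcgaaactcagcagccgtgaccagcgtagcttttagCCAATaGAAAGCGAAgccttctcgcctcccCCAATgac
Ep400: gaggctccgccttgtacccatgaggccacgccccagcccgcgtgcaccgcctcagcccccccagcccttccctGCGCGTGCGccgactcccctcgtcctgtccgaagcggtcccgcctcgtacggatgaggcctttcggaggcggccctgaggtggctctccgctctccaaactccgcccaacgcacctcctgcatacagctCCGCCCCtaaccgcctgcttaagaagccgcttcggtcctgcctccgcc
Yy1: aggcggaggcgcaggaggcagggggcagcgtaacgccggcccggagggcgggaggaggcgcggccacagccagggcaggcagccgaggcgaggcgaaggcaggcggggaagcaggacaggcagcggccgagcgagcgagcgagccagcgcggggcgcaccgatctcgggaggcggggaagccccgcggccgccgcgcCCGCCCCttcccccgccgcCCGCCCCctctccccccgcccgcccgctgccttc
The Ruvbl2 promoter holds 1 GC box and 2 CCAAT boxes. The Ruvbl1 promoter holds 2 CCAAT boxes the interferon response letters, and TATAAA on the other strand, and no GC box. That of Ep400 holds a GC box and an NRF1 motif, and that of Yy1 holds 2 GC boxes in sequence that is 81.2% G and C.

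Of the 33 members, 26 had a promoter in the RefSeq table, and Brd8, Epc1, Ino80c, Vps72, Ino80d, Actr8 and Actr5 did not. Searched on both strands, the GC box GGGGCGG lay in 16 of the 26 (61.5%), against 41.4% of the 9995 measured genes with a promoter and 23.2% of all 27025 promoters. The CCAAT box lay in 13 of the 26, against 40.4% of measured genes. The ETS letters CCGGAAG lay in 8 (30.8%), against 15.7%, the E-box CACGTG in 5 (19.2%), against 9.78%, and the NRF1 letters GCGCNTGCG in 4 (15.4%), against 12.5%. The kappaB letters GGGANTTNC were found in 0 of the 26 windows, against 4.65% of measured genes. The interferon response letters GAAANNGAA lay in 5 (Ruvbl1, Znhit1, Dmap1, Kat5 and Ing3), against 7.46%. The YY1 letters AAGATGG and the TATA letters TATAAA lay in 2 members each, against 5.29% and 8.64%. The CRE TGACGTCA lay in Ing3 alone and the ZNF143 letters ACTACAA in Srcap alone, against 3.15% and 4.50%. Some of these motifs can overlap each other, and a match describes the letters of the window only. The median G and C share of the windows was 56.5% for members and 59.2% for measured genes.

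**Figure D1:**
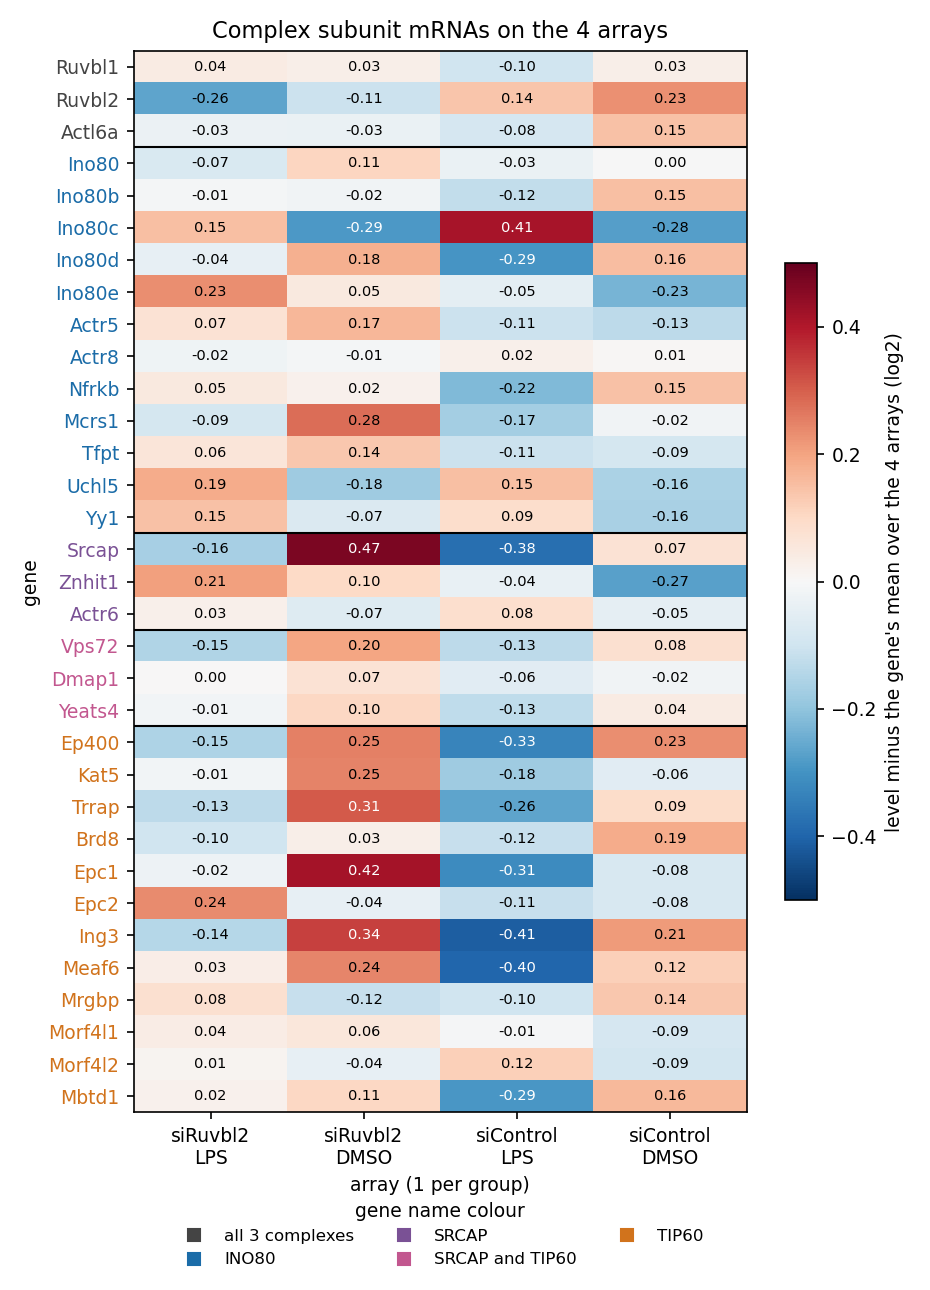
Level of each member on each of the 4 arrays minus that gene's mean over the arrays (log2, colour and printed value), with genes down the page by complex and arrays across it. Ruvbl2 is at -0.26 and -0.11 on the Ruvbl2 siRNA arrays and at 0.14 and 0.23 on the control siRNA arrays, and several TIP60 genes are lowest on the control siRNA LPS array and highest on the Ruvbl2 siRNA DMSO array.

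With LPS present, most subunit mRNAs read slightly higher with Ruvbl2 siRNA than with control siRNA, and none reached 1.5-fold. The difference was above 0 for 26 of 33 members, against 51.1% of all genes, and below 0 for 7, against 48.9%. Relative to the median of all genes the same number, 26, lay above. The median over the members was 0.13 (0.14 without Ruvbl2), against 0.01 over all genes. At least 1.5-fold higher were 0 members, against 2.77% of genes, and at least 1.5-fold lower were 0, against 4.11%. At 2-fold the background was 0.417% higher and 0.938% lower. Over 2 technical SDs above 0 lay 11 members (background 20.7%) and over 2 below lay Ruvbl2 and Ino80c (background 18.7%). By the scanner's error model only Meaf6 passed 2 SDs.

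The highest values in this comparison belonged to TIP60 subunits. Meaf6, a small subunit shared with other acetyltransferase complexes, had levels of 3.02 with Ruvbl2 siRNA and LPS and 3.23 with Ruvbl2 siRNA and DMSO, against 2.59 with control siRNA and LPS and 3.11 with control siRNA and DMSO. The control LPS array was low and the other 3 lay close together. Its siRNA difference in LPS was 0.43 ± 0.09, with 0.32 and 0.36 by its other probes, and 6.25% of all genes had a value as high or higher.

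Epc2, an enhancer of polycomb protein that anchors the catalytic module, had levels of 1.77 and 1.496 with Ruvbl2 siRNA in LPS and DMSO, against 1.42 and 1.45 with control siRNA. By this brightest probe the Ruvbl2 siRNA LPS array stood above the other 3, with a difference of 0.35 ± 0.11 in LPS and 0.04 ± 0.11 in DMSO. The second Epc2 probe gave 0.18 ± 0.11 in LPS and 0.50 ± 0.11 in DMSO. Its highest array was that of Ruvbl2 siRNA with DMSO. Mbtd1, a reader of methylated histone tails, had levels of 1.01 and 1.09 with Ruvbl2 siRNA in LPS and DMSO, against 0.70 and 1.15 with control siRNA. Its control LPS array was the low one, and the difference in LPS was 0.31 ± 0.11.

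Lowest after Ruvbl2 were Ino80c and Morf4l2. Ino80c, a subunit that pairs with Actr5 on the nucleosome, differed by -0.26 ± 0.11 in LPS and by -0.01 in DMSO. Morf4l2, a relative of Morf4l1 that lacks its chromodomain, differed by -0.10 ± 0.07 in LPS, while its dimmer probe gave 0.47. Alone is used here among INO80, SRCAP and TIP60 only, since some of these subunits also serve other complexes. Of 12 subunits found in TIP60 alone, 11 had values above 0, against 51.1% of all genes, and the exception was Morf4l2. Of 12 found in INO80 alone, 9 did, against the same 51.1%. Their medians were 0.18 for TIP60 and 0.10 for INO80, and with 1 array per group the gap between them could not be tested.

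Without LPS, the siRNA difference of the members was nearer to that of all genes. It was above 0 for 22 of 33, against 58.3% of genes, and below for 11, against 41.7%. With spike-in scaling 7 were above 0, against 14.6% of all genes. Relative to the median of all genes 18 lay above and 15 below. The median was 0.06, against 0.04 for all genes. At least 1.5-fold higher were 0 members (background 2.06%) and at least 1.5-fold lower were 0 (background 2.03%), with a 2-fold background of 0.361% higher and 0.449% lower. Over 2 technical SDs above 0 lay 9 members (background 21.2%) and over 2 below lay Ruvbl2, Brd8 and Mrgbp (background 10.8%).

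Epc1, the paralog of Epc2, had the highest value in DMSO. Its levels were 1.22 and 1.66 with Ruvbl2 siRNA in LPS and DMSO, against 0.93 and 1.16 with control siRNA, so both Ruvbl2 siRNA arrays lay above both control arrays. The difference in DMSO was 0.50 ± 0.11 (0.23 with spike-in scaling), as high or higher in 3.27% of all genes, and it alone passed 2 SDs of the scanner's error model. Its second, dimmer probe gave 0.02 in DMSO and 0.42 in LPS.

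Znhit1, a zinc finger subunit of SRCAP, had levels of 5.87 and 5.76 with Ruvbl2 siRNA in LPS and DMSO, against 5.63 and 5.40 with control siRNA. Its groups did not overlap, and the difference was 0.24 ± 0.07 in LPS and 0.37 ± 0.07 in DMSO. Mrgbp, which links the Morf4l proteins to TIP60, had levels of 1.34 and 1.14 with Ruvbl2 siRNA in LPS and DMSO, against 1.16 and 1.39 with control siRNA. The siRNA groups overlapped, and its difference was 0.18 ± 0.11 in LPS and -0.25 ± 0.11 in DMSO. The scanner's SD of 0.20 exceeds the first of these.

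Across both treatments, 19 members lay above the control with Ruvbl2 siRNA, against 35.3% of all genes, and 4 lay below it (Ruvbl2, Ino80c, Actr8 and Actr6), against 26.0%. Relative to the median of all genes these counts were 15 and 4, against 30.7% of genes on each side. With spike-in scaling they were 7 and 8, against 8.997% of all genes above and 47.9% below. Both Ruvbl2 siRNA arrays lay above both control arrays for 10 members (background 15.2%): Ruvbl1, Ino80e, Actr5, Tfpt, Znhit1, Dmap1, Kat5, Epc1, Epc2 and Morf4l1. They lay below for Ruvbl2 and Actr8 (background 10.3%). For Ruvbl1 the nearest arrays were at 5.561 and 5.560. With spike-in scaling the DMSO difference was below 0 for Ruvbl1 (-0.26), Tfpt (-0.04), Dmap1 (-0.17), Epc2 (-0.22) and Morf4l1 (-0.12). It stayed above 0 for Ino80e, Actr5, Znhit1, Kat5 and Epc1. Other Morf4l1 probes gave siRNA differences of 0.01, -0.36 and -0.06 in LPS, and 0.16, -0.155 and 0.06 in DMSO. Actr8, an actin-related INO80 subunit that binds the DNA beside the nucleosome, spanned only 4.04 to 4.09 on the 4 arrays, and its differences were -0.05 ± 0.07 in LPS and -0.02 ± 0.07 in DMSO.

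**Figure D2:**
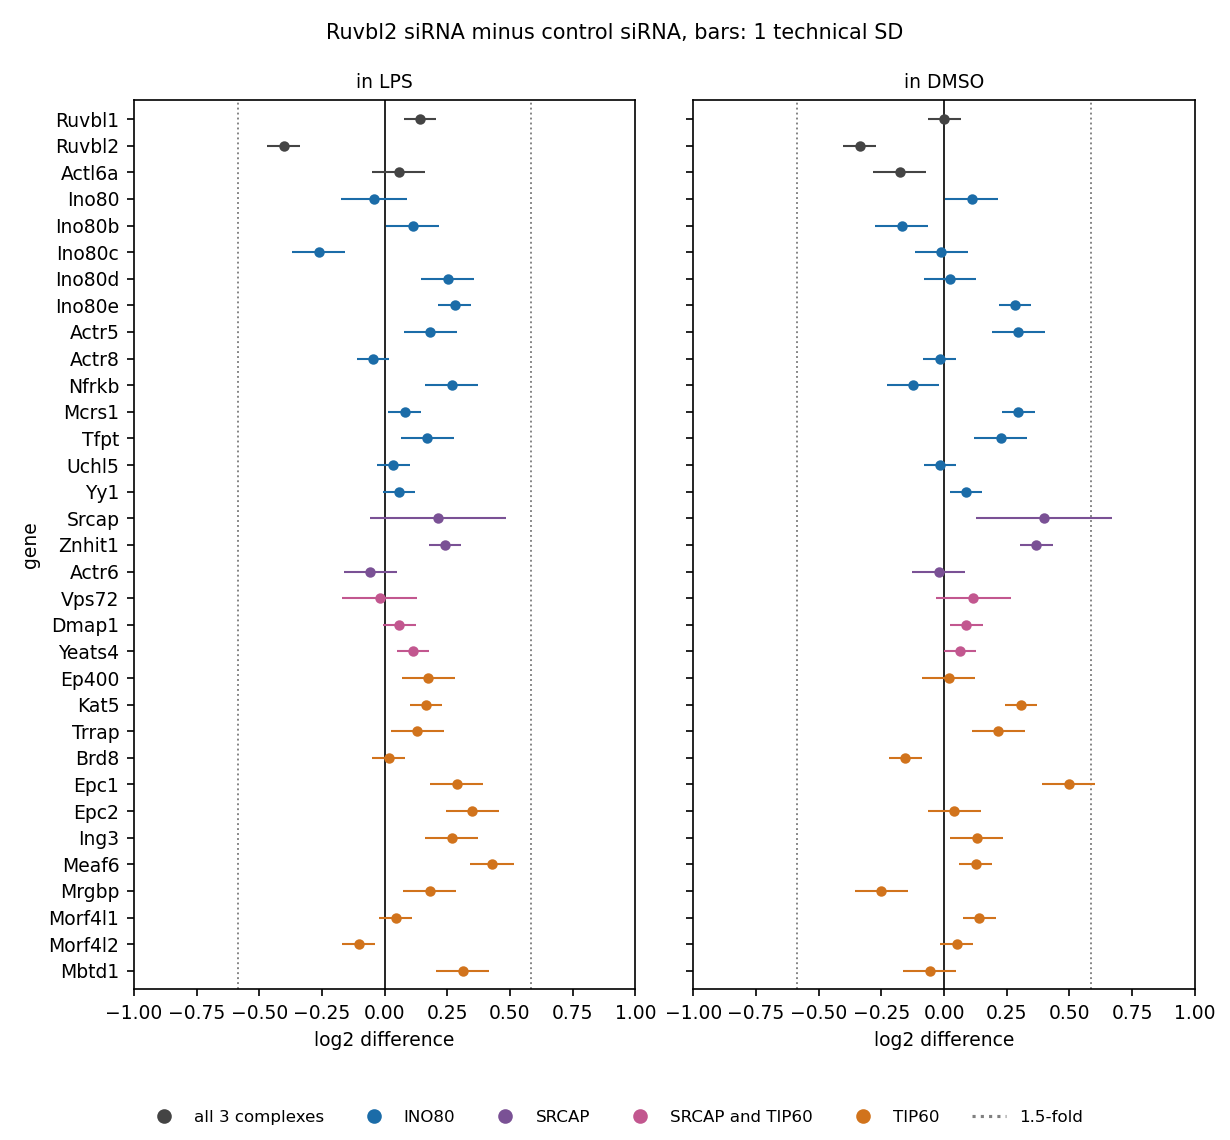
Log2 difference of Ruvbl2 siRNA minus control siRNA for each member, in LPS on the left and in DMSO on the right (points, with bars of 1 technical SD and dotted lines at 1.5-fold). Points lie mostly to the right of 0 in LPS, with Ruvbl2 at -0.40 and Meaf6 at 0.43 as the ends, and no point passes a dotted line in either treatment.

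LPS had small effects on the subunit mRNAs. With Ruvbl2 siRNA, 13 of 33 members were above 0, against 46.3% of all genes, and 20 were below, against 53.7%. Spike-in scaling put 26 above 0, with 80.3% of all genes. Relative to the median of all genes 15 lay above and 18 below, and the median was -0.07, against -0.03 for all genes. At least 1.5-fold lower was 1 member, Srcap (background 7.12%), and at least 1.5-fold higher were 0 (background 7.64%). With control siRNA, 10 of 33 were above 0, against 49.7% of genes, and 23 below, against 50.3%, with the same counts relative to the median of all genes. Spike-in scaling put 14 above 0, with 59.4% of all genes. The median was -0.13, against 0.00 over all genes. At least 1.5-fold higher was 1 member, Ino80c (background 10.0%), and at least 1.5-fold lower was 1, Ing3 (background 7.86%). None reached 2-fold with either siRNA. The 2-fold background was 3.13% up and 1.61% down with Ruvbl2 siRNA, and 4.61% up and 2.08% down with control siRNA. Over 2 technical SDs above and below 0 lay 5 and 12 members with Ruvbl2 siRNA (background 24.4% and 27.4%), and 6 and 14 with control siRNA (background 27.9% and 25.8%). By the scanner's error model only Ino80c, above 0, and Srcap, Trrap, Epc1 and Ing3, below it, passed 2 SDs with Ruvbl2 siRNA. With control siRNA only Ino80c, above 0, and Ino80d, Ep400, Ing3, Meaf6 and Mbtd1, below it, did. The comparisons with each siRNA use separate arrays, whereas the siRNA and LPS comparisons share theirs.

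The motor ATPase genes Ino80, Srcap and Ep400 were lower with LPS under both siRNAs, as were 39.5% of all genes. The amounts differed, and spike-in scaling turned the sign of Ino80. Ino80, which gives the complex its name, had levels of -0.02 with Ruvbl2 siRNA and LPS and 0.16 with Ruvbl2 siRNA and DMSO, against 0.02 with control siRNA and LPS and 0.05 with control siRNA and DMSO. Its LPS difference was -0.18 ± 0.13 with Ruvbl2 siRNA and -0.03 ± 0.11 with control siRNA, and both are above 0 with spike-in scaling (0.14 and 0.06). Between siRNAs it differed by -0.04 ± 0.13 in LPS and 0.11 ± 0.11 in DMSO. Srcap, the H2A.Z exchanger, was dim, at -2.64 and -2.01 with Ruvbl2 siRNA in LPS and DMSO, against -2.86 and -2.41 with control siRNA. LPS arrays were below DMSO arrays, by -0.63 ± 0.27 with Ruvbl2 siRNA (1.55-fold lower) and -0.45 ± 0.27 with control siRNA. A second Srcap probe gave -0.26 and -0.60, and spike-in scaling of the first gave -0.31 and -0.36. Its siRNA difference was 0.21 ± 0.27 in LPS and 0.40 ± 0.27 in DMSO, against 0.39 and 0.05 by the second probe.

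Ep400, the motor of TIP60, had levels of 1.67 with Ruvbl2 siRNA and LPS and 2.07 with Ruvbl2 siRNA and DMSO, against 1.49 with control siRNA and LPS and 2.05 with control siRNA and DMSO. Both LPS arrays lay below both DMSO arrays. The LPS difference was -0.41 ± 0.11 with Ruvbl2 siRNA and -0.56 ± 0.11 with control siRNA, while a second, dimmer probe gave -0.10 and -0.58. Between siRNAs it differed by 0.17 ± 0.11 in LPS and 0.02 ± 0.11 in DMSO. Its promoter holds the GC box and NRF1 letters.

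Kat5, the TIP60 acetyltransferase itself, had levels of 3.95 and 4.21 with Ruvbl2 siRNA in LPS and DMSO, against 3.78 and 3.90 with control siRNA. Both Ruvbl2 siRNA arrays lay above both control arrays, by 0.17 ± 0.07 in LPS and 0.31 ± 0.07 in DMSO. The DMSO value was 0.04 with spike-in scaling, and a second, dimmer probe on another transcript gave 0.06 and 0.08. The LPS difference was -0.26 ± 0.07 with Ruvbl2 siRNA, 0.06 with spike-in scaling, and -0.12 ± 0.07 with control siRNA. The second probe gave LPS differences of -0.01 and 0.01.

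Trrap, the large scaffold that TIP60 shares with SAGA, had levels of 1.93 and 2.37 with Ruvbl2 siRNA in LPS and DMSO, against 1.80 and 2.15 with control siRNA. Both LPS arrays lay below both DMSO arrays, by -0.44 ± 0.11 with Ruvbl2 siRNA and -0.35 ± 0.11 with control siRNA. Its other 3 probes gave LPS differences of -0.21, -0.54 and -0.45 with Ruvbl2 siRNA and -0.12, -0.56 and -0.58 with control siRNA. All 4 probes were below 0 with both siRNAs, and the brightest also was with spike-in scaling (-0.12 and -0.27). The siRNA difference was 0.13 ± 0.11 in LPS and 0.22 ± 0.11 in DMSO, and the DMSO value was -0.05 with spike-in scaling. Its other probes lay on both sides of 0, at -0.33, 0.11 and -0.02 in LPS and at -0.24, 0.09 and -0.15 in DMSO.

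Ing3, a reader of methylated histone tails in TIP60, had the lowest LPS difference with control siRNA. Its levels were 1.64 with Ruvbl2 siRNA and LPS and 2.12 with Ruvbl2 siRNA and DMSO, against 1.37 with control siRNA and LPS and 1.99 with control siRNA and DMSO. The LPS arrays lay below the DMSO arrays, by -0.49 ± 0.11 with Ruvbl2 siRNA and -0.62 ± 0.11 with control siRNA (1.54-fold lower). Among all genes 10.6% and 6.86% had a value as low or lower. A second probe gave -0.62 and -0.41, and spike-in scaling -0.16 and -0.53.

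Epc1 and Meaf6 were also lower on the LPS arrays. For Epc1 the LPS difference was -0.44 ± 0.11 with Ruvbl2 siRNA and -0.23 ± 0.11 with control siRNA, and its second probe gave -0.24 and -0.64. For Meaf6 it was -0.21 ± 0.07 with Ruvbl2 siRNA, which spike-in scaling turned to 0.11, and -0.51 ± 0.09 with control siRNA. Brd8, a bromodomain subunit, differed by -0.13 ± 0.07 with Ruvbl2 siRNA (0.19 with spike-in scaling) and by -0.30 ± 0.07 with control siRNA, and its dimmer probe gave 0.01 and -0.76. Of the 12 subunits of TIP60 that are not in INO80 or SRCAP, 8 were lower with LPS under both siRNAs, against 39.5% of all genes. These were Ep400, Kat5, Trrap, Brd8, Epc1, Ing3, Meaf6 and Mbtd1. Only Morf4l2 was higher under both, by its brightest probe, against 35.5%. Relative to the median of all genes the count below was again 8, against 37.5% of genes, and with spike-in scaling it was 4 (Ep400, Trrap, Epc1 and Ing3), against 16.2%. The median LPS difference of these 12 was -0.17 with Ruvbl2 siRNA and -0.27 with control siRNA.

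Among INO80 subunits a few were higher with LPS. Ino80c had levels of 0.87 with Ruvbl2 siRNA and LPS and 0.44 with Ruvbl2 siRNA and DMSO, against 1.14 with control siRNA and LPS and 0.45 with control siRNA and DMSO. Both LPS arrays lay above both DMSO arrays. Its difference of 0.44 ± 0.11 with Ruvbl2 siRNA and 0.69 ± 0.11 with control siRNA (1.61-fold higher) was the highest of the members in each. With control siRNA, 8.05% of all genes had a value as high or higher. It has 1 probe on the array.

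Uchl5, a deubiquitinase that INO80 shares with the proteasome, had levels of 5.44 and 5.41 on the LPS arrays with Ruvbl2 and control siRNA, against 5.08 and 5.10 on the DMSO arrays. The gap was 0.36 ± 0.07 with Ruvbl2 siRNA and 0.31 ± 0.07 with control siRNA, and the siRNA difference was 0.04 in LPS and -0.02 in DMSO. Yy1, the DNA-binding factor among the INO80 subunits, had levels of 3.45 and 3.39 on the LPS arrays with Ruvbl2 and control siRNA, against 3.23 and 3.14 on the DMSO arrays. Its LPS difference was 0.22 ± 0.07 and 0.25 ± 0.07, while its dimmer probe gave -0.09 and 0.06.

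Ino80e, an accessory INO80 subunit, differed by both siRNA and LPS. Its levels were 6.12 and 5.93 with Ruvbl2 siRNA in LPS and DMSO, against 5.84 and 5.65 with control siRNA. The siRNA difference was 0.28 ± 0.07 in each treatment, 0.02 in DMSO with spike-in scaling, and the LPS difference was 0.18 ± 0.07 with Ruvbl2 siRNA and 0.19 ± 0.07 with control siRNA. Actr5, the actin-related partner of Ino80c, had siRNA differences of 0.18 ± 0.11 in LPS and 0.30 ± 0.11 in DMSO, and Tfpt, another accessory subunit, 0.17 ± 0.11 and 0.23 ± 0.11. With spike-in scaling the DMSO values were 0.03 for Actr5 and -0.04 for Tfpt. Ino80b, a zinc finger subunit, ran opposite ways, at 0.11 ± 0.11 in LPS and -0.17 ± 0.11 in DMSO, and its dimmer probe gave -0.16 and 0.01.

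Of the 12 subunits of INO80 alone, 4 were higher with LPS under both siRNAs (Ino80c, Ino80e, Uchl5 and Yy1) and 4 lower (Ino80, Ino80d, Mcrs1 and Tfpt). Second probes gave 0.15 for Ino80d and -0.04 for Tfpt with Ruvbl2 siRNA, and -0.53 and 0.37 with control siRNA. The median LPS difference of the 12 was 0.00 with each siRNA. The shares of these 12 on each side, 33.3% and 33.3%, stood against 35.5% and 39.5% of all genes. With spike-in scaling 8 were higher, Ino80 and Tfpt among them, and Mcrs1 was lower, against 55.9% and 16.2% of all genes. Epc2 was higher with LPS under Ruvbl2 siRNA, by 0.28 ± 0.11, against -0.03 ± 0.11 with control siRNA, but its second probe gave -0.26 and 0.06.

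The H2A.Z loading subunits of SRCAP differed among themselves. Znhit1 was higher with LPS, by 0.11 ± 0.07 with Ruvbl2 siRNA and 0.23 ± 0.07 with control siRNA, and Actr6, which holds H2A.Z in the complex, by 0.09 ± 0.11 and 0.13 ± 0.11. Vps72, the H2A.Z chaperone shared with TIP60, was lower, by -0.35 ± 0.15 and -0.21 ± 0.15. Dmap1 and Yeats4, shared scaffold and acyl-histone reader, lay between -0.17 and -0.04. With spike-in scaling Vps72 was at -0.03 with Ruvbl2 siRNA and -0.12 with control siRNA, while Dmap1 turned to 0.25 and 0.05, and Yeats4 to 0.21 with Ruvbl2 siRNA only.

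Over all 33, both LPS arrays lay above both DMSO arrays for 5 members (background 28.7%): Ino80c, Uchl5, Yy1, Actr6 and Morf4l2. They lay below for 12 (background 31.2%): Ino80, Ino80d, Mcrs1, Srcap, Vps72, Yeats4, Ep400, Trrap, Brd8, Ing3, Meaf6 and Mbtd1. These lists rest on the brightest probes. The dimmer Morf4l2 probe gave LPS differences of -0.01 with Ruvbl2 siRNA and -0.35 with control siRNA. The other Mbtd1 probes ranged from -0.31 to 0.31 with Ruvbl2 siRNA and from -0.26 to 0.11 with control siRNA. LPS was above DMSO with both siRNAs for 7 members, against 35.5% of genes, and below for 17, against 39.5%. Relative to the median of all genes these counts were 9 and 17, against 37.5% of genes on each side. With spike-in scaling they were 14 and 7, against 55.9% and 16.2%.

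**Figure D3:**
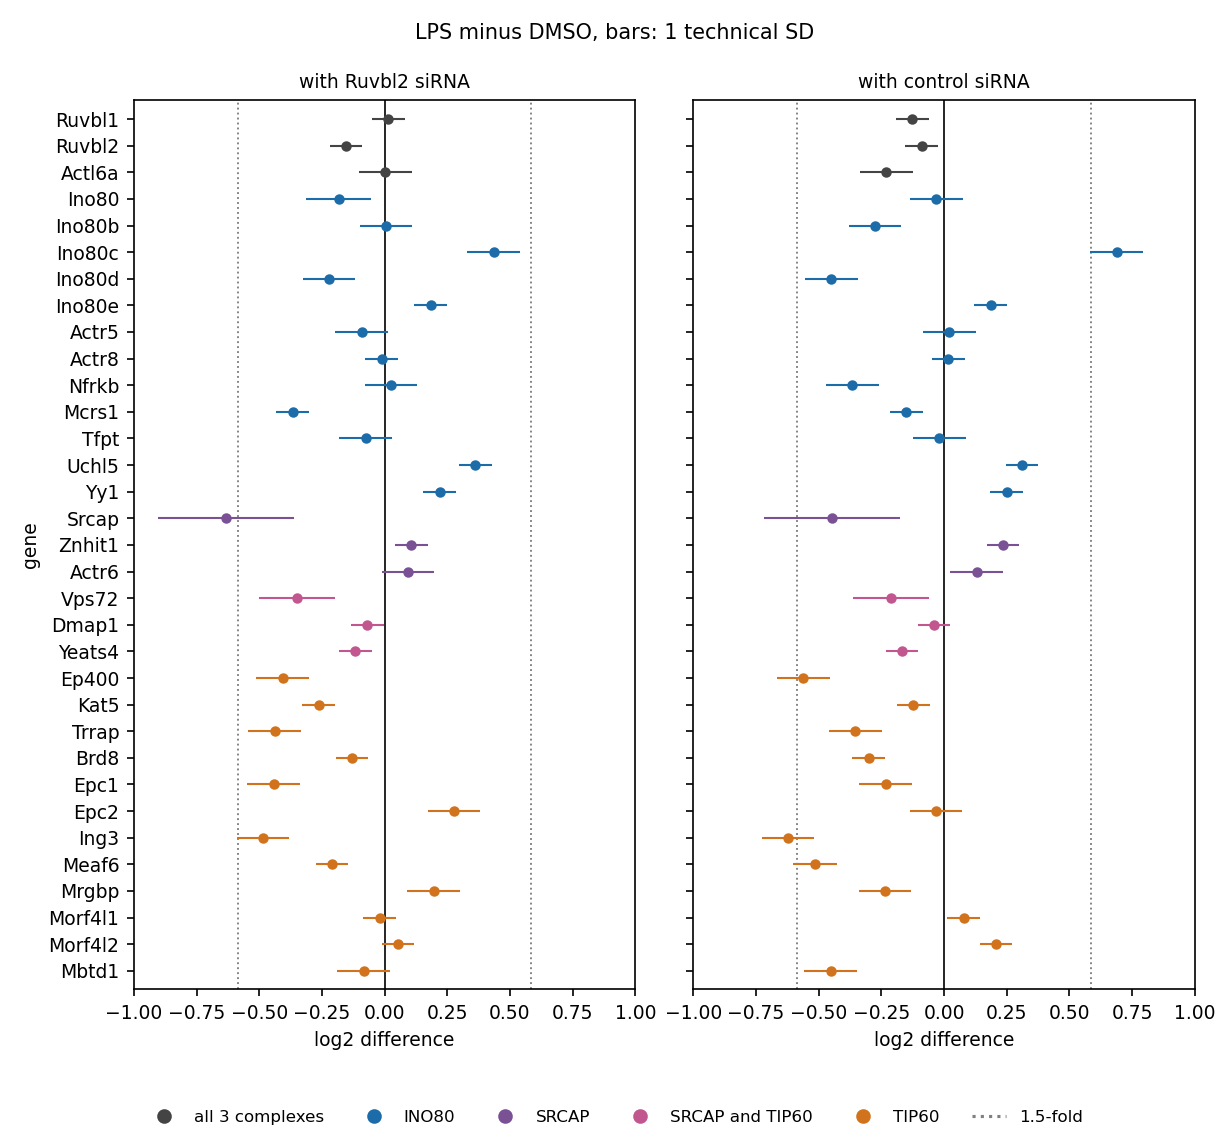
Log2 difference of LPS minus DMSO for each member, with Ruvbl2 siRNA on the left and control siRNA on the right (points, with bars of 1 technical SD and dotted lines at 1.5-fold). Ino80c is highest in both panels, at 0.44 and 0.69, and Srcap at -0.63 on the left and Ing3 at -0.62 on the right are the points past the lower dotted line.

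The LPS response itself was compared between siRNAs as the difference of the LPS differences, Ruvbl2 siRNA minus control siRNA. No member reached 1.5-fold (background 2.92% higher and 5.22% lower) or 2-fold (0.513% and 1.18%). The difference was above 0 for 14 of 33, against 45.0% of genes, and below for 19, against 55.0%. The median was -0.03 for the members and for all genes. With spike-in scaling the median was 0.21 for the members and 0.20 for all genes, a shift that all genes shared. Over 2 technical SDs above 0 lay Nfrkb, Epc2, Meaf6, Mrgbp and Mbtd1 (background 10.5%), and over 2 below lay Mcrs1 (background 15.8%). The second Epc2 probe ran the other way, at -0.32 ± 0.15. The scanner's error model was not applied to these values. Its SD had a median of 0.20 for a difference between 2 arrays and is larger for values that take in all 4 arrays.

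Mrgbp was highest, at 0.43 ± 0.15, from an LPS difference of 0.20 with Ruvbl2 siRNA and -0.24 with control siRNA. Nfrkb, the subunit that holds Uchl5 in INO80, had levels of 0.84 and 0.82 with Ruvbl2 siRNA in LPS and DMSO, against 0.58 and 0.94 with control siRNA. Its LPS difference was 0.03 with Ruvbl2 siRNA and -0.37 with control siRNA, a gap of 0.39 ± 0.15. Mbtd1 had a gap of 0.37 ± 0.15, and its other 5 probes gave values from -0.42 to 0.37.

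At the other end, Ino80c had a gap of -0.25 ± 0.15 and Epc1 of -0.21 ± 0.15. Mcrs1, a subunit of INO80 that also serves the NSL acetyltransferase complex, had levels of 4.08 and 4.45 with Ruvbl2 siRNA in LPS and DMSO, against 4.003 and 4.15 with control siRNA. The Ruvbl2 siRNA DMSO array stood above the other 3, and the gap was -0.22 ± 0.09, while its dimmer probe gave 0.16.

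Probes of one gene show how far such small differences hold within an array. The 33 members had 62 probes, all well above background on all 4 arrays, and 20 members had more than 1. Of the 29 probes that were not the brightest of their gene, 24 had the direction of the brightest for LPS with control siRNA (82.8%, against 70.8% of 6136 such probes over all genes). For LPS with Ruvbl2 siRNA 19 did (65.5%, against 68.7%), for the siRNA difference in LPS 20 did (69.0%, against 69.5%), and in DMSO 18 did (62.1%, against 58.4%). For the difference of the LPS differences 16 did (55.2%, against 62.7%). Probes of a gene share the RNA and the array and are not replicates of a condition.

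Morf4l1, the chromodomain protein of TIP60 also known as MRG15, showed a split between its probes for LPS. Its brightest probe, A_51_P343787, had an LPS difference of -0.02 with Ruvbl2 siRNA and 0.08 with control siRNA, and probe A_55_P2740213 had -0.05 and 0.10. Probes A_55_P2018559 and A_55_P2740867 had 0.51 and 0.53 with Ruvbl2 siRNA and 0.71 and 0.65 with control siRNA. The annotation places all 4 on the same RefSeq transcript. The first pair therefore showed almost no LPS difference and the second pair about 1.5-fold, with both siRNAs. Ino80d, an INO80 subunit, had an siRNA difference in LPS of 0.25 by its brightest probe and 0.73 by its other.

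**Figure D4:**
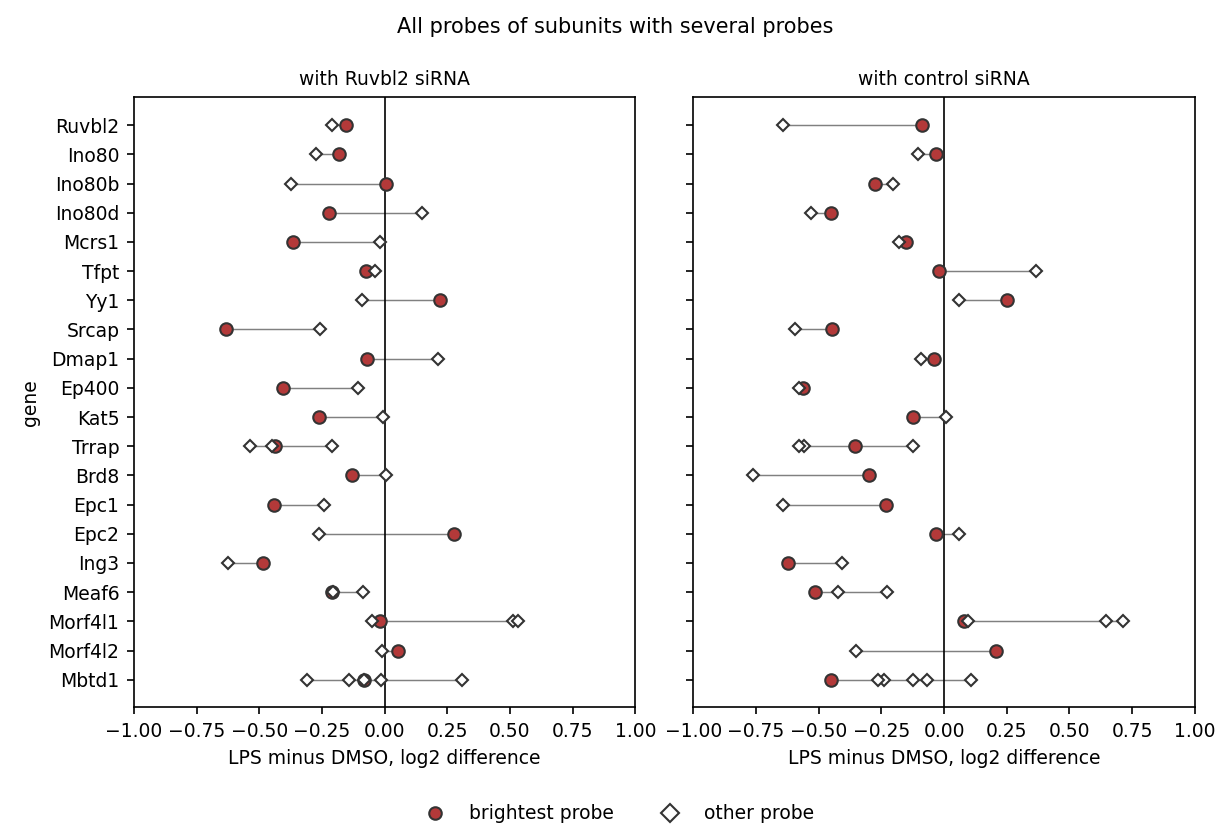
LPS minus DMSO (log2) for every probe of the 20 members with more than 1 probe, with Ruvbl2 siRNA on the left and control siRNA on the right (filled circle, brightest probe; open diamond, other probe; a line joins probes of a gene). Trrap probes all lie left of 0, while Morf4l1 probes split into a pair near 0 and a pair between 0.51 and 0.71.

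Other chromatin genes give the scale of these values. The median siRNA difference in LPS was 0.09 over 25 BAF genes, 0.08 over 22 NuRD and ISWI genes and 0.18 over 22 SAGA and MOF genes, against 0.13 for the 33 subunits. Above 0 in that comparison were 68.0%, 72.7% and 63.6% of these lists, against 78.8% of the subunits and 51.1% of all genes. The median LPS difference was -0.23 for BAF, -0.01 for NuRD and ISWI and -0.10 for SAGA and MOF with Ruvbl2 siRNA, against -0.07 for the subunits. With control siRNA these were -0.13, -0.06 and -0.22, against -0.13. None of the gaps between lists could be tested. Past 2-fold among these chromatin genes were H2az2, which encodes an H2A.Z histone, and Bicra, a BAF subunit gene. Both were lower with LPS past 2-fold with Ruvbl2 siRNA only, as were 1.61% of all genes. Spike-in scaling, which subtracts a shift of -0.32 from that comparison, would bring both under 2-fold. H2az2 had levels of 4.68 and 5.77 with Ruvbl2 siRNA in LPS and DMSO, against 4.76 and 5.52 with control siRNA. Its LPS difference was -1.09 with Ruvbl2 siRNA and -0.77 with control siRNA, while H2az1, the other H2A.Z gene, had -0.27 and -0.23. For Bicra, which was dim at levels from -2.30 to -1.14, the LPS difference was -1.01 and -0.93. Among the macrophage markers, the Fc receptor gene Fcgr1 had an LPS difference of 2.11 with Ruvbl2 siRNA and 2.01 with control siRNA. Past 2-fold with control siRNA were also Adgre1 (0.19 with Ruvbl2 siRNA and 1.12 with control siRNA) and Cd14, the LPS co-receptor (0.88 and 1.08).

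**Figure D5:**
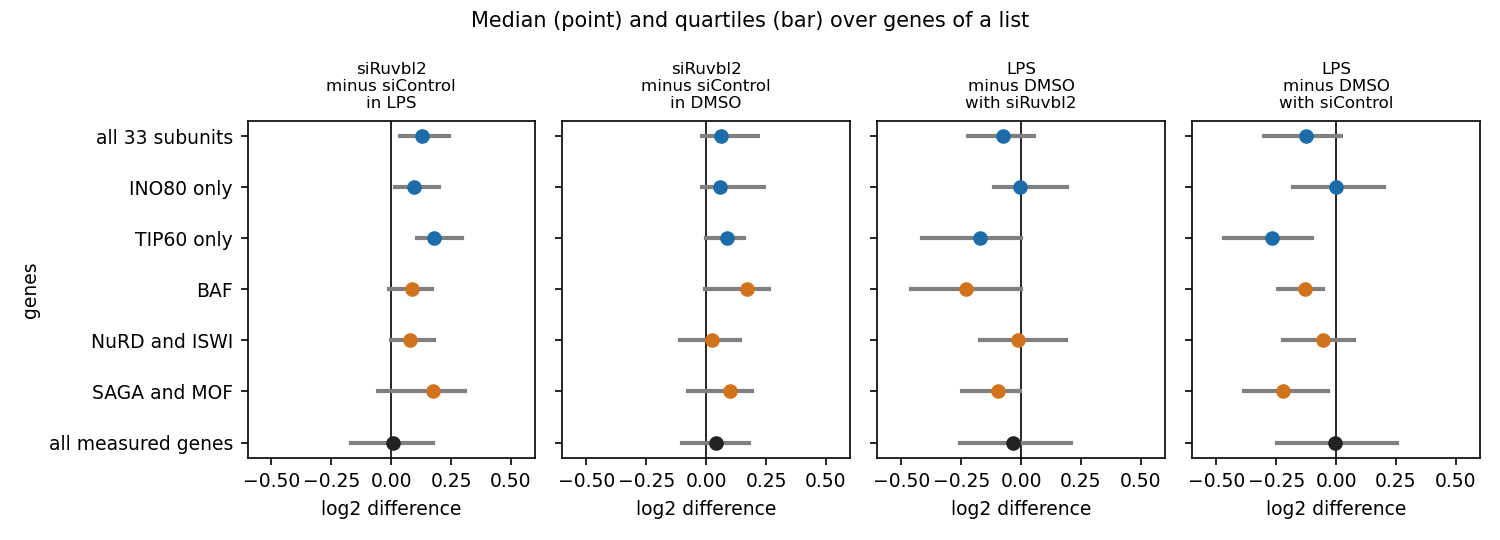
Median (point) and quartiles (bar) of the log2 difference in the 4 comparisons for the 33 subunits, the 12 of INO80 alone and the 12 of TIP60 alone (blue), other chromatin complexes (orange) and all 12471 measured genes (black). The median of the 33 subunits is 0.13 for the siRNA difference in LPS, against 0.01 for all genes, and the medians of TIP60 genes for LPS are -0.17 and -0.27.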

How the data were processed

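RNA of 4 groups, with 1 array each, was measured on a 1-colour Agilent whole-genome mouse array of 62976 spots. The deposited values are intensities: per the file headers, the processed signal was made with Agilent Feature Extraction 11.5.1.1 and is background-subtracted within the array; version 11.0 stands in the submitters' processing notes. The deposited value table equals that signal at all 62976 spots of each array (relative tolerance 1e-06). Of 56605 RNA probes, 32994 were named through their RefSeq accession and a GRCm38.p6 gene table. The annotation in the file headers rests on another build, so no probe positions are given.

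Repeat spots were averaged, log2 was taken and the 75th percentile of the array subtracted (Python 3.11.15, numpy 2.4.6, pandas 2.3.3). A gene was represented by its brightest probe. Technical SDs come from 300 probes printed 10 times and the spike-in probes. Of the latter, the 7 that were well above background on all arrays were used for spike-in scaling. Counting each probe on each array, 1087 lay at levels above 3. Only 25 lay from 0 to 3, where 17 members lie, 5 from -2 to 0 and 23 from -4 to -2. Size rules were 1.5-fold and 2-fold, and the steps were tested on simulated data. Alternatives were normexp with an offset of 50 and quantile normalization (R 4.3.3, limma 3.58.1), quantile normalization alone, centring on the median, spike-in scaling, the mean of a gene's probes, other filters on dim genes and the deposited table. The normexp alternative used the median spot signal, since the files hold no mean signal column. Given in full are Ruvbl2, Ruvbl1, the enzymes and Trrap, members past 1.5-fold, and the 3 highest and 3 lowest members of each comparison. Of the other lists, genes past 2-fold are named. The members and lists were chosen with earlier results of these data known. A further marker gene is not reported here.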

Additional observations from a re-analysis of the deposited data

How the results depend on the processing

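With 1 array per group, the number of arrays limits every value. No paired analysis was possible because each group has 1 array. Spike-in scaling shifts all genes together. The siRNA difference in DMSO then had a median of -0.20 over members and -0.22 over all genes. Of the members, 7 were above 0, against 14.6% of all genes, and 1, Ruvbl2, was at least 1.5-fold lower. The LPS difference with Ruvbl2 siRNA had a median of 0.25 over members and 0.29 over all genes. Of the members, 26 were above 0, against 80.3% of all genes, with 3 at least 1.5-fold higher and 0 lower. With control siRNA 0 members were at least 1.5-fold lower. The difference of the LPS differences had a median of 0.21, with 32 above 0 and 3 at least 1.5-fold higher. The mean of a gene's probes turned the sign of 3 to 7 members per comparison, and normexp with quantile normalization of 1 to 4. For LPS with Ruvbl2 siRNA, 0 members were 1.5-fold lower after normexp with quantile normalization, quantile normalization alone, the mean of a gene's probes, or with a floor of -2 on the brighter array's level, which leaves Srcap out. For LPS with control siRNA, normexp with quantile normalization gave 0 higher and 0 lower, and the mean of probes gave 0 lower. The cause was not tested. Each other probe of a gene, an alternative chosen after seeing the data, turned the sign of 9 of 29 siRNA differences in LPS, 11 in DMSO, 10 of the LPS differences with Ruvbl2 siRNA, 5 with control siRNA and 13 of the differences between them.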
